A study of Mus musculus with 6 samples.

Results

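B cells were the barcodes of the 2 repetitive exposure libraries that carried Cd79a and Ms4a1 transcripts. Cd79a encodes the signalling chain that carries the B cell receptor signal into the cell, and Ms4a1 encodes CD20. A barcode stands for 1 droplet, and its unique molecular identifiers (UMIs) count the transcript molecules caught in it. A barcode was taken as a B cell with at least 700 UMIs in all, at least 2 UMIs of Cd79a plus Ms4a1 of which at least 1 was of Ms4a1, fewer than 2 UMIs of the antibody-secretion genes Mzb1 plus Jchain, and 0 UMIs of the T cell gene Cd3e. This gave 87 B cell barcodes, 26 in the PBS library and 61 in the bleomycin library, among 33286 barcodes in the 6 libraries of the series. Since expression chose these barcodes, their Cd79a, Ms4a1, Mzb1, Jchain and Cd3e values are given as descriptions.

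Both libraries came from PDGFRa-EGFP reporter mice, in which cells that use the Pdgfra gene, a marker of lung fibroblasts (FBs), carry green fluorescent protein (GFP). Mice received PBS or bleomycin by oropharyngeal aspiration in 50 µl, once a week for 3 weeks, at bleomycin doses of 1, 1 and 0.5 U/kg. These doses are those of the sample characteristics and the design text, while a protocol entry common to all 6 libraries names a single bleomycin dose of 2 U/kg instead. Lungs were taken 2 weeks after the last dose, the cells of 3 mice were pooled per group, and GFP+ cells were sorted. Bleomycin is a DNA-damaging drug that causes lung fibrosis. Each condition was 1 library, so nothing is known of how mice of 1 group vary, no test between conditions was made, and all intervals below are 95% counting intervals that cover counting error alone.

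B cells make antibody. A naive B cell displays IgM and IgD on its surface, made from 1 heavy chain transcript that is spliced to either the Ighm or the Ighd constant gene, together with a kappa or a lambda light chain. After activation it can switch the heavy chain to IgG, IgA or IgE and can become an antibody-secreting plasma cell. B cells also take up antigen and present it on MHC class II molecules, and they recirculate between blood and lymphoid follicles under the chemokine receptors CXCR5 and CCR7. In injured lung they are known to gather in clusters near airways and vessels. A sort for GFP is not designed to collect them, so their share reflects the gate as well as the lung.

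The promoters below are those of Cd79a, H2-Aa and H2-Eb1, by which the B cells are described, and of Cd22 and Blnk, shown because theirs were the windows of listed B cell genes that held the EBF1 or octamer letters. Windows run from 250 bases before to 50 bases after the transcription start on the gene's strand and are RefSeq sequences of build GRCm38.p6. Capitals mark the letters GATTGG or its reverse complement CCAATC (the Y box, read by the factor NF-Y in MHC class II promoters), TCCC followed after any 2 bases by GGGA (letters read by the B cell factor EBF1), and ATTTGCAT or its reverse complement (the octamer, read by OCT2 in B cells). Cd79a, which chose the barcodes, lies at chr7:24897247-24897546 on the + strand and holds none of these exact letters. Other forms of these sites were not searched for. H2-Aa and H2-Eb1, the MHC class II chains, lie at chr17:34287774-34288073 on the − strand and chr17:34305617-34305916 on the + strand. Cd22, an inhibitory coreceptor, lies at chr7:30878979-30879278 and Blnk, an adaptor of receptor signalling, at chr19:40994172-40994471, both on the − strand.
Cd79a: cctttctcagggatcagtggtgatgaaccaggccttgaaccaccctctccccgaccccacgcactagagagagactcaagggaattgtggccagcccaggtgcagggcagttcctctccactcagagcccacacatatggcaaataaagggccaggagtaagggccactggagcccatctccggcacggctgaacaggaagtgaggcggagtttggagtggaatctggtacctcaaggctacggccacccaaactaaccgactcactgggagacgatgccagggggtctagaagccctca
H2-Aa: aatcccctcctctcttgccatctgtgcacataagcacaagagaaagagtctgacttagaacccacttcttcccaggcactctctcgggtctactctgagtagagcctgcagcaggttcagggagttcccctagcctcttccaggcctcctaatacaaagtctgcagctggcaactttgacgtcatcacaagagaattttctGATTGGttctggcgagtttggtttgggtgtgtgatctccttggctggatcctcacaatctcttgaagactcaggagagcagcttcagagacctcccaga
H2-Eb1: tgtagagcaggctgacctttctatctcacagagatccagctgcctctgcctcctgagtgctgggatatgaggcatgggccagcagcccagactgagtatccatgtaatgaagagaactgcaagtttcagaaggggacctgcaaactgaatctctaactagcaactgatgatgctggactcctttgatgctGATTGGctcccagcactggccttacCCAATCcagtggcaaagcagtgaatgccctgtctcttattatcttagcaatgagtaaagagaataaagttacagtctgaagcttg
Cd22: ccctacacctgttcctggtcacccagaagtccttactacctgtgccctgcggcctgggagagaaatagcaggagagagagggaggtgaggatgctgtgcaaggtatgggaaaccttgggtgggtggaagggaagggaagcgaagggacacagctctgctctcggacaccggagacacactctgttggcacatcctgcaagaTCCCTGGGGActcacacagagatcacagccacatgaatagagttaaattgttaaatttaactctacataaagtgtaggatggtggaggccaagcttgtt
Blnk: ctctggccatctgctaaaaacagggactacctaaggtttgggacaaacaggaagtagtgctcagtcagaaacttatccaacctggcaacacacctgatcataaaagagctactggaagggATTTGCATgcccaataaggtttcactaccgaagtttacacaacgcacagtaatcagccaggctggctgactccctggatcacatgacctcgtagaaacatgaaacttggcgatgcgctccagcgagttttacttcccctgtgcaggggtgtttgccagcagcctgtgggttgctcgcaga

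Of the 12 MHC class II genes listed, 9 had a window, in 10 windows, and GATTGG was found on either strand in 8 of the 10, against 16.1% of all 32851 windows. It began 49 bases before the start of H2-Aa, and 60 and 35 bases before that of H2-Eb1. Of 22 B cell genes, 17 had a window, in 20 windows. The EBF1 letters were in 1 of these, that of Cd22, 49 bases before the start, against 0.904% of all windows. The octamer was also in 1, that of Blnk, 130 bases before the start, against 1.74% of all windows. These matches describe the letters in the windows and say nothing of binding.

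B cells were 26 of 6076 barcodes with at least 700 UMIs in the PBS library, 0.428% (exact Clopper-Pearson interval 0.280 to 0.626%), and 61 of 9965 in the bleomycin library, 0.612% (0.469 to 0.786%). The intervals overlap. T cells, defined by at least 2 UMIs of Cd3d, Cd3e and Cd3g without Cd79a or Ms4a1, were 119 and 95 barcodes. Barcodes with at least 5 UMIs of Mzb1 plus Jchain, genes of plasma cells, and without Ms4a1 or Cd3e, were 2 and 234. FBs, defined by at least 5 UMIs of Pdgfra, Col1a1, Col1a2 and Col3a1 without Ptprc, Cd79a, Ms4a1 or Cd3e, were 5412 and 8413. The libraries held 64697147 and 68354458 UMIs, with a median of 10178 and 2478 UMIs per barcode. They shared 28 barcode sequences, none of which was a B cell barcode.

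The B cell barcodes split by how much RNA of other cells they held. UMIs of 10 FB genes and 5 endothelial genes made up under 0.25% of the UMIs in 70 of them and at least 0.5% in the other 17, with none between. The 17 mixed barcodes were 5 of 26 in the PBS library and 12 of 61 in the bleomycin library, and held 65.3% of all B cell UMIs in PBS but 28.3% in bleomycin. The 5 PBS ones were deep, at 13463, 17133, 23132, 38538 and 44110 UMIs, above every other PBS B cell barcode (2461 to 5085, median 3270). The 12 bleomycin ones ran from 817 to 13032 UMIs with a median of 5008.5, beside 1328 to 6655 and a median of 3301 in the 49 others. Whether a mixed barcode held more than 1 cell or RNA from outside the cell was not tested, and doublets were not called. The limit of 0.5% was set after these values were seen. Of the 12, the 6 with the fewest UMIs of 20 B cell identity genes held 1 to 7 of them, and 1 bleomycin barcode under the limit held 2 and no Cd79a, so the bleomycin count includes barcodes with little B cell RNA. Under the limit B cells were 0.346% (0.214 to 0.528%) of PBS and 0.492% (0.364 to 0.650%) of bleomycin barcodes, and these intervals overlap too.

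The comparison classes were held to the same limit. Under 0.5%, T cells were 97 of 119 and 58 of 95 barcodes. Of the Mzb1 and Jchain barcodes, none of the 2 in PBS and 8 of the 234 in bleomycin were under it. The 234 had a median of 2.50% FB marker UMIs, beside 3.14% in FBs, and had FB marker UMIs in 233 barcodes. Below, T cells and plasma cells are the barcodes under 0.5%.

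**Figure D1:**
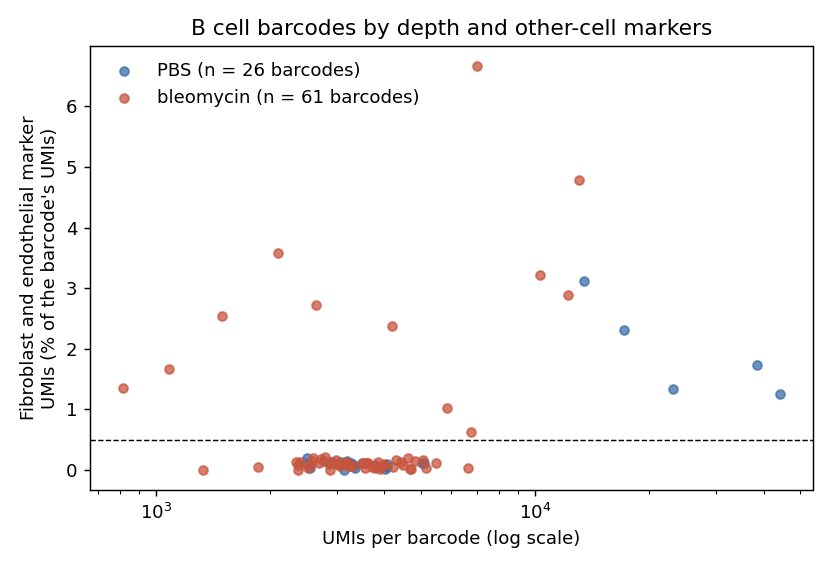
Each point is 1 B cell barcode, placed by its UMIs (log scale) and by the percentage of them from FB and endothelial marker genes, with the 0.5% limit dashed. The 5 PBS points above the line start at 13463 UMIs, while the 70 points below it lie between 1328 and 6655 UMIs.

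RNA of other cells in the mixed barcodes differed between the libraries. All 5 in PBS carried FB RNA, at 69 to 417 UMIs of the FB list. In addition, 3 of the 5 carried 239, 387 and 346 UMIs of the endothelial list. Cldn5, a tight junction gene of endothelial cells, had 326 UMIs in these 3 barcodes and 0 in the bleomycin B cells, and Cdh5 had 171 and 0. In bleomycin the mixed barcodes carried 11 to 623 UMIs of the FB list and at most 4 of the endothelial list. T cell markers had 1 UMI in all 5 PBS mixed barcodes together and 0 in the 12 bleomycin ones. Because of this, B cell levels are given below for the 70 barcodes under 0.5% (21 PBS and 49 bleomycin), in counts scaled to 1000000 UMIs (CPM) of their summed UMIs, 72436 in PBS and 171116 in bleomycin. In these sums 1 UMI was 13.8 CPM in PBS and 5.84 CPM in bleomycin, and 3 UMIs, taken as the detection limit, were 41.4 and 17.5 CPM. A gene is called detected below with at least 3 UMIs in the summed barcodes of a library.

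The values near the limits of the rule were as follows. No PBS B cell barcode and 5 bleomycin ones had exactly 2 UMIs of Cd79a plus Ms4a1, and all 5 were mixed. Just outside, 13 PBS and 35 bleomycin barcodes had 1 UMI of Ms4a1 and none of Cd79a, of which 12 and 31 were at or over 0.5% FB and endothelial UMIs. Another 6 and 10 barcodes had at least 2 UMIs of Cd79a but none of Ms4a1. The Mzb1 and Jchain limit left out more. Among barcodes under 0.5%, 19 of 40 in PBS (47.5%, 31.5 to 63.9%) and 23 of 72 in bleomycin (31.9%, 21.4 to 44.0%) met the Cd79a and Ms4a1 terms but had 2 or more UMIs of Mzb1 plus Jchain. Of all barcodes with at least 700 UMIs they were 0.313% (0.188 to 0.488%) in PBS and 0.231% (0.146 to 0.346%) in bleomycin. The B cell shares thus depend on this limit, which no alternative setting changed. Mzb1 is also used by B cells that do not secrete. The 19 PBS barcodes left out held 766 CPM of Mzb1, 0 UMIs of Jchain and 2118 CPM of Ighm, beside 1878 CPM of Ighm in the 21 kept. The 23 bleomycin ones held 913 CPM of Mzb1, 12716 CPM of Jchain, from 4 barcodes, and 18808 CPM of Ighm, beside 1841 CPM in the 49 kept. Their identity genes summed to 7998 CPM beside 14113 CPM in the kept, and light chain constant genes were 12.3% of their UMIs. A few deep barcodes carry these sums. The median barcode of the 23 held 1.34% identity and 1.20% light chain UMIs, beside 1.44% and 1.15% in the kept, and the highest held 57.2% light chain UMIs.

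The defining genes were as follows. Cd79a was at 3217 CPM (2817 to 3657) in PBS against 2495 CPM (2264 to 2744) in bleomycin, and was found in 21 of 21 and 48 of 49 barcodes. Ms4a1 stood at 801 CPM (608 to 1035) and 929 CPM (790 to 1085). Mzb1 stood at 138 and 81.8 CPM, and Jchain and Cd3e were at 0 UMIs by the rule. Pdgfra, the gene of the sort, was at 0 UMIs in all 70 barcodes, and stood at 592 and 372 CPM in FBs. Markers of other cells were counted too. Of 10 T cell markers, 0 were detected in PBS and 1 in bleomycin (Lck, 5 UMIs). Myeloid markers had 2 and 5 UMIs, and neutrophil markers 0 and 0. Epithelial markers had 8 UMIs in 3 of 21 PBS barcodes (110 CPM, 47.7 to 218) and 38 UMIs in 23 of 49 bleomycin barcodes (222 CPM, 157 to 305). FB markers were 0.0649% and 0.0608% of the UMIs, beside 0.680% and 0.957% over all 87 barcodes. Gsn, an abundant FB gene, stood at 276 and 146 CPM in the B cells against 12905 and 7011 CPM in FBs. The 70 barcodes were kept for their low share of FB and endothelial marker UMIs, and Gsn is one of those FB markers. FBs were in turn chosen in part by their Pdgfra UMIs. The Pdgfra, FB marker and Gsn values thus follow in part from the selection. They are given as descriptions and are no separate check that the barcodes lack FB RNA.

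Genes that the rule did not use also marked these barcodes as B cells. All 20 listed B cell identity genes were detected in both libraries, summing to 12590 CPM (11786 to 13435) in PBS against 14113 CPM (13556 to 14688) in bleomycin. The same genes summed to 895 and 365 CPM in T cells and 152 and 189 CPM in FBs. The same barcodes supply every value, so this is a description. T cells and FBs were defined without Cd79a or Ms4a1 UMIs, so their low levels of B cell genes here and below follow in part from that choice. Per barcode the identity genes gave 25 to 90 UMIs with a median of 38 in PBS, and 2 to 84 with a median of 46 in bleomycin. Cd79b, the partner chain of Cd79a, stood at 1132 CPM (900 to 1405) and 1496 CPM (1318 to 1691). Ebf1, the factor that commits progenitors to the B lineage, stood at 2540 and 2758 CPM, and Pax5, which keeps that identity, at 400 and 573 CPM. Bank1, a scaffold of receptor signalling, stood at 1753 and 2612 CPM. Ly6d, a surface protein of B lineage cells, stood at 1808 and 1718 CPM. Cd22 stood at 138 and 164 CPM and Blnk at 290 and 292 CPM. Spib, a factor of B cells and plasmacytoid dendritic cells, stood at 96.6 and 87.7 CPM. In T cells Pax5 was at 0 UMIs, and in FBs it was under 0.2 CPM. FBs held Ebf1, at 63.0 and 125 CPM, and Ralgps2, an exchange factor for Ral GTPases, at 84.7 and 46.8 CPM, beside 828 and 713 CPM of Ralgps2 in B cells.

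**Figure D2:**
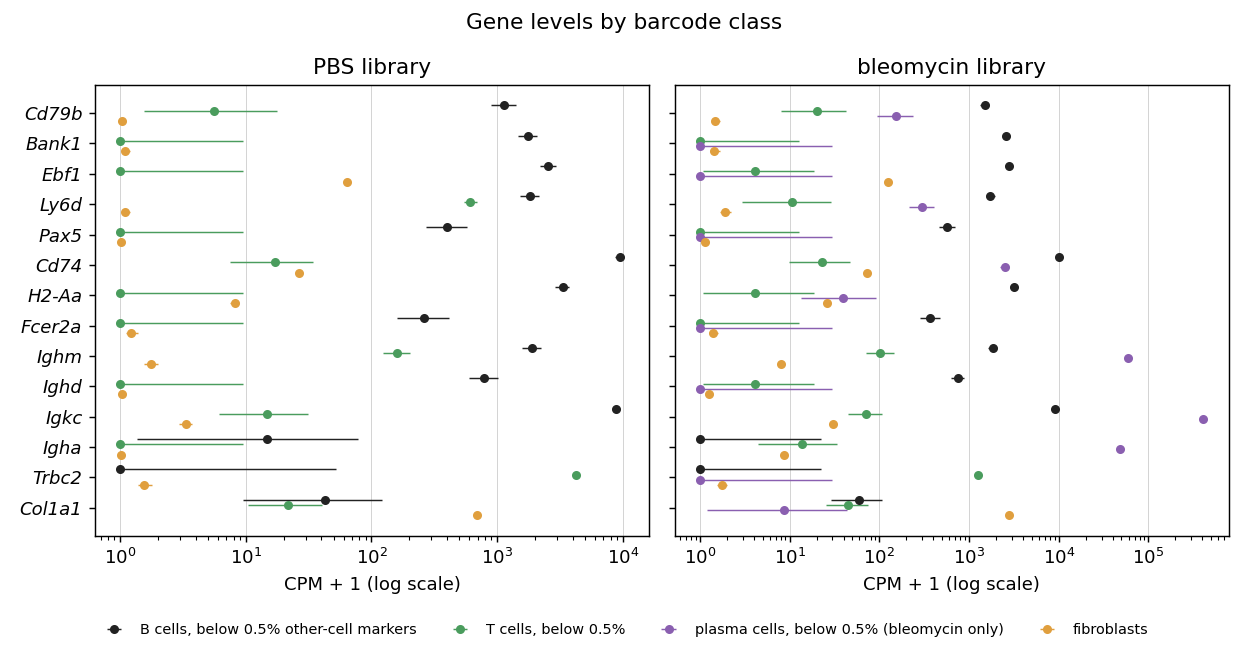
Levels of 14 genes (CPM + 1, log scale) with exact Poisson intervals in the B cells, T cells and plasma cells under 0.5% and in FBs of the PBS and bleomycin libraries. Cd79b, Bank1 and Pax5 lie furthest right in the B cells of both libraries, Ighm and Igkc in the plasma cells, and Trbc2 is at 0 UMIs in the B cells. Plasma cells are 8 bleomycin barcodes and none in PBS.

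The B cells kept by the rule carried unswitched heavy chains. Ighm, the constant gene of IgM, was at 1878 CPM (1575 to 2221) in PBS against 1841 CPM (1643 to 2056) in bleomycin. Ighd, the constant gene of IgD, stood at 787 CPM (596 to 1020) and 748 CPM (624 to 889). Both values overlap between the libraries. Per barcode, Ighm ran from 0 to 20 UMIs with a median of 5 in PBS and from 0 to 15 with a median of 6 in bleomycin. At least 1 of Ighm and Ighd was found in 21 of 21 PBS barcodes and 48 of 49 bleomycin barcodes, and both in 18 of 21 and 40 of 49. Ighm led Ighd in 15 of 21 and 38 of 49, and Ighd led in 4 and 5. Switched genes were all but missing from the kept barcodes. Ighg1, Ighg2b, Ighg2c, Ighg3 and Ighe had 0 UMIs in all 70 barcodes, and Igha had 1 UMI in 1 PBS barcode. The exact upper limits of a count of 0 are 50.9 CPM in PBS and 21.6 CPM in bleomycin. Igha stood at 10700 CPM in the 23 bleomycin barcodes left out by the Mzb1 and Jchain limit, from 4 of them. It had 0 UMIs in the 19 PBS ones. Of the 8 heavy chain genes, 6 had at least 1 UMI in those 23, beside 2 in the 49 kept. The lack of Igha in the bleomycin B cells was thus set in part by that limit.

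Plasma cells and FBs give the background for these counts. In the 8 bleomycin plasma cells, Igha stood at 48011 CPM, found in 4 of the 8, and Ighm at 59109 CPM, and Ighd was at 0 UMIs. In FBs Ighd stood at 0.0336 CPM in PBS and 0.251 CPM in bleomycin. Each barcode was thinned to 2000 UMIs, which kept 21 of 21 and 47 of 49 B cells and 5315 and 5268 FBs. Ighd was then found in 71.4% of the PBS and 74.5% of the bleomycin B cells (95.2% and 83.7% before thinning), and in 0.0188% and 0.114% of FBs. Ighm was found in 90.5% and 97.9% of B cells after thinning (90.5% and 95.9% before), in 0.132% and 1.78% of FBs, and in 34.1% and 10.9% of T cells (43.3% and 37.9% before).

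Light chains were mostly kappa. Igkc, the kappa constant gene, was at 8849 CPM (8177 to 9562) in PBS against 9158 CPM (8710 to 9622) in bleomycin. Kappa led in 16 of 21 PBS barcodes (76.2%, 52.8 to 91.8%) and 45 of 49 bleomycin barcodes (91.8%, 80.4 to 97.7%). Lambda, the sum of Iglc1, Iglc2 and Iglc3, led in 3 (14.3%, 3.05 to 36.3%) and 4 (8.16%, 2.27 to 19.6%), and in 2 PBS barcodes neither led. The intervals overlap. A single B cell normally makes 1 light chain type, but kappa-led barcodes held a median of 7 lambda UMIs in both libraries, beside medians of 31 and 28 kappa UMIs. Those lambda UMIs came from Iglc2 (median 4 and 4) and Iglc3 (3.5 and 3), and Iglc1 had a median of 0. Iglc2 and Iglc3 are near-identical genes, so how reads were divided between them is uncertain, and in T cells of the PBS library both were at 0 UMIs. Bleomycin T cells held 2 UMIs of Iglc2 (6.34 CPM) and 0 of Iglc3. Among the 7 lambda-led barcodes, a bleomycin barcode with 83 lambda UMIs and a PBS barcode with 19 held 0 kappa UMIs, while the others held 2 to 22.

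**Figure D3:**
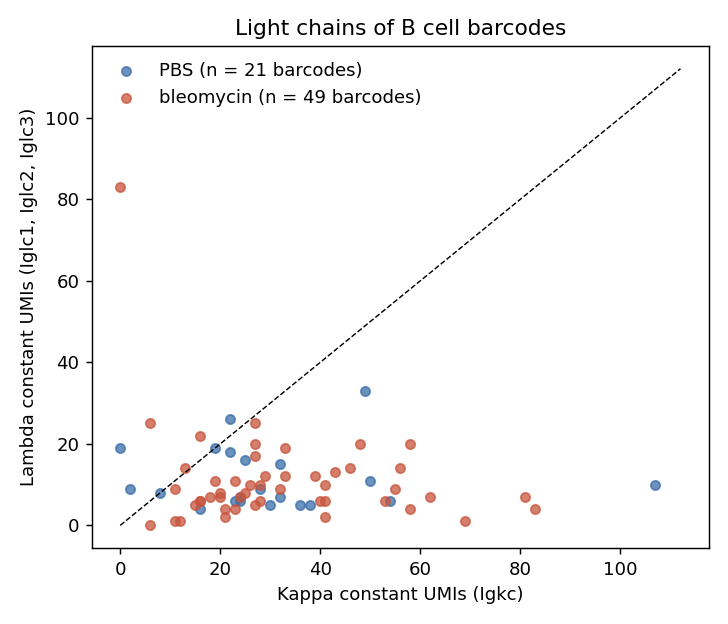
Each point is 1 of the 70 B cell barcodes under 0.5%, placed by UMIs of the kappa constant gene Igkc and of the 3 lambda constant genes, with equality dashed. Most points of both libraries lie below the line but above 0 lambda UMIs, and 7 lie above it.

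Variable segments, which differ between B cell clones, were seldom counted. Of 185 heavy chain segments in the tables, UMIs were found in 6 of 21 PBS and 12 of 49 bleomycin barcodes, and 160 kappa segments gave UMIs in 4 and 16 barcodes. A leading segment, with more UMIs than any other and at least 2, was present in 2 PBS barcodes for heavy chain and 2 for kappa, and in 1 and 6 bleomycin barcodes. Ighv3-5 and Ighv6-3 each led 1 PBS barcode, Ighv1-76 led 1 bleomycin barcode, Igkv1-117 led 2 bleomycin barcodes and Igkv1-110 led 1 barcode in each library. No barcode had both a leading heavy and a leading light segment, so clones could not be compared.

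MHC class II genes were abundant in both libraries. Their 12 listed genes summed to 21384 CPM in PBS and 21944 CPM in bleomycin B cells, against 59.2 and 187 CPM in FBs and 96.6 and 124 CPM in T cells. Cd74, the invariant chain that guides class II molecules to the antigen compartment, stood at 9429 CPM (8735 to 10164) and 10122 CPM (9651 to 10610). H2-Aa stood at 3313 CPM (2907 to 3760) and 3156 CPM (2895 to 3434), and H2-Eb1, whose promoter is shown above, at 2996 CPM (2610 to 3422) and 3179 CPM (2918 to 3458). H2-Ob, part of a brake on peptide loading found in B cells, stood at 345 and 479 CPM. Ciita, the master regulator of class II genes, was low, at 69.0 CPM (22.4 to 161) and 158 CPM (104 to 230), from 5 PBS UMIs in 4 barcodes. Every interval named here overlaps between the libraries.

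Genes of recirculating follicular B cells were present. Fcer2a, the low affinity IgE receptor CD23, was at 262 CPM (158 to 410) in PBS against 368 CPM (283 to 471) in bleomycin. Cxcr5, the receptor for the follicle chemokine CXCL13, stood at 221 and 146 CPM, and Ccr7, the receptor for CCL19 and CCL21, at 304 and 216 CPM. Klf2, a factor of quiescence and recirculation, stood at 870 and 1023 CPM. Foxp1, a factor of naive B cells, stood at 2250 and 2367 CPM. Bach2, a repressor of plasma cell fate, stood at 1256 and 1443 CPM. Gpr183, the oxysterol receptor that positions B cells at follicle edges, stood at 704 and 526 CPM. Among receptors for BAFF, the B cell survival factor, Tnfrsf13c stood at 138 and 169 CPM and Tnfrsf13b at 138 and 93.5 CPM.

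Genes of other B cell states were detected in part. Of the 6 B-1 cell genes none was detected in either library, and Cd5 was at 0 UMIs in both. The list held 2 UMIs in PBS (27.6 CPM, 3.34 to 99.7) and 1 in bleomycin (5.84 CPM, 0.148 to 32.6). The barcodes left out by the Mzb1 and Jchain limit held 7 UMIs in 4 of 19 in PBS (78.9 CPM, 31.7 to 163). In bleomycin they held 10 UMIs in 4 of 23 (52.5 CPM, 25.2 to 96.5). Both intervals overlap those of the kept barcodes. The low B-1 counts are thus given for the kept barcodes only, and the effect of the limit on them was not tested. Of 9 germinal centre genes, 1 was detected in each library, the list summing to 82.8 and 70.1 CPM. Of 8 marginal zone genes, 3 and 6 were detected, the list summing to 497 CPM (348 to 688) and 567 CPM (460 to 692). Among them Cr2, which follicular cells also use, stood at 221 and 240 CPM, while Cd9 had 0 UMIs in PBS and 5.84 CPM in bleomycin. Of 9 genes listed for immature B cells, 2 were detected in each library, Vpreb3 and Cd24a. The list summed to 331 CPM (212 to 493) and 403 CPM (314 to 510). Vpreb3, which mature B cells also keep, stood at 152 and 222 CPM. The recombination genes Rag1, Rag2 and Dntt and the surrogate light chain genes Igll1 and Vpreb1 had 0 UMIs in both. Of 11 plasmablast genes, 2 and 6 were detected, the list summing to 345 CPM (223 to 509) and 362 CPM (278 to 464). Among them Irf4 stood at 221 and 164 CPM, and Prdm1, the factor of plasma cell fate, was at 0 UMIs in both. The rule had left out barcodes with 2 or more UMIs of Mzb1 plus Jchain, so these levels were set in part by the rule. Of 10 memory and atypical B cell genes, 4 and 3 were detected, summing to 525 CPM (371 to 720) and 386 CPM (298 to 491). Of 11 cell cycle genes, 1 and 2 were detected, and 3 and 8 had at least 1 UMI, the list summing to 359 CPM (234 to 526) and 316 CPM (237 to 412), and the highest barcode held 0.106% and 0.431% of its UMIs in them. Mki67 had 0 UMIs in both libraries, and Hmgb2, a chromatin protein that resting lymphocytes also use, stood at 331 and 245 CPM. Without Hmgb2 the list held 2 and 12 UMIs. Among cytokines, Ltb, which encodes lymphotoxin beta, stood at 594 CPM (430 to 800) and 766 CPM (640 to 908), while Tnf, Il10 and Ccl22 had 0 UMIs in both and Il6 had 0 and 1 (5.84 CPM). Several of these lists are not particular to B cells here. FBs held the marginal zone list at 625 and 767 CPM and the memory list at 1167 and 1372 CPM. The plasmablast list stood in FBs at 405 and 494 CPM and the germinal centre list at 208 and 192 CPM. Lower in FBs were the cell cycle list (146 and 172 CPM) and the immature list (12.5 and 10.7 CPM). The B-1 list stood in FBs at 5.50 and 7.98 CPM.

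The FBs sorted with the B cells carried the ligands for some of the receptors named above. Cxcl13 stood at 11.2 CPM in PBS FBs and 93.4 CPM in bleomycin FBs, Cxcl12, the ligand of Cxcr4, at 90.1 and 382 CPM, and Ccl19 at 40.8 and 61.1 CPM. Tnfsf13b, which encodes BAFF, stood at 139 and 137 CPM, and Vcam1, an adhesion ligand of the integrin chain Itga4, at 706 and 464 CPM. In the B cells Cxcr4 stood at 152 CPM (75.8 to 272) and 117 CPM (71.4 to 181), and Itga4 at 276 and 316 CPM.

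Bleomycin was then compared with PBS across genes, as the log2 ratio of CPM after adding 10 CPM, for genes with at least 20 UMIs over both libraries and a mean of at least 50 CPM. Over all 87 barcodes, 3582 genes qualified, of which 213 were at least 2-fold higher in bleomycin (5.95%) and 531 at least 2-fold lower (14.8%). Over the 70 barcodes under 0.5%, 1840 genes qualified, 110 at least 2-fold higher (5.98%) and 59 at least 2-fold lower (3.21%), or 9.18% in either direction beside 20.8% over all barcodes. In these 70, 1 UMI was 5.84 CPM in bleomycin and 13.8 CPM in PBS. A gene high in bleomycin alone thus met the minimum of 20 UMIs at a lower CPM than a gene high in PBS alone. The numbers of higher and lower genes are therefore not set against each other. Counting intervals lay apart for 282 genes higher (7.87%) and 455 lower (12.7%) over all barcodes, but for 18 genes higher (0.978%) and 31 lower (1.68%) over the 70. The genes with the 10 lowest ratios over all barcodes, at a mean of at least 100 CPM, were each found in 3 PBS barcodes. Of these, Cldn5, Cdh5 and Ptprb are on the endothelial list. The others were Hpgd, Adgrf5, Ctla2a, Egfl7, Cd36, Tspan7 and Epas1, of which Epas1 also stood at 83.1 and 39.5 CPM in FBs. Cldn5 stood at 1561 CPM (1396 to 1740) in PBS and at 0 UMIs in bleomycin, at least 124-fold lower against the floor of 3 UMIs, and none of the 21 PBS barcodes under 0.5% held it. Among the 10 highest, Csmd1, Mmp2, Col3a1, Col1a1, Eln, Aebp1 and Col1a2 stood higher in bleomycin FBs than in the bleomycin B cells, with Col1a1 at 788 CPM in B cells and 2800 CPM in FBs. The remaining 3 were March1, Ifi30 and Ms4a4c.

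The B cell lists showed the same dependence. Over all barcodes, 7 of 20 identity genes were at least 2-fold higher in bleomycin and none lower, beside 5.95% and 14.8% of all genes, with a median log2 ratio of 0.91 beside −0.09 over all genes. Over the 70 barcodes none passed 2-fold, beside 5.98% higher and 3.21% lower of all genes, and the median was 0.04, beside 0.01 over all genes. The summed identity level was higher in bleomycin over the 70, but Bank1 alone held 859 of the 1523 CPM between the libraries, and without it the sums were 10837 CPM (10092 to 11623) and 11501 CPM (10998 to 12021), with overlapping intervals. The MHC class II median went from 0.69 to 0.17, with 3 and then 1 of 12 genes past 2-fold (H2-Eb2, H2-Oa and Ctss, then Ciita), all higher, so that the second count is near the share of all genes. Receptor signalling genes went from 0.79 to 0.01, inhibitory genes from 0.89 to 0.01 and follicular genes from 0.73 to 0.14. Homing genes went from 0.57 to −0.38, heat shock genes from −0.31 to 0.06, cytokine genes from 0.46 to 0.28 and survival genes from 0.27 to 0.02. Interferon response genes went from −0.54 to −0.26, with only 4 genes in the second value. The mixed barcodes held 65.3% of PBS and 28.3% of bleomycin UMIs, and no share of the change was assigned to them by a test.

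**Figure D4:**
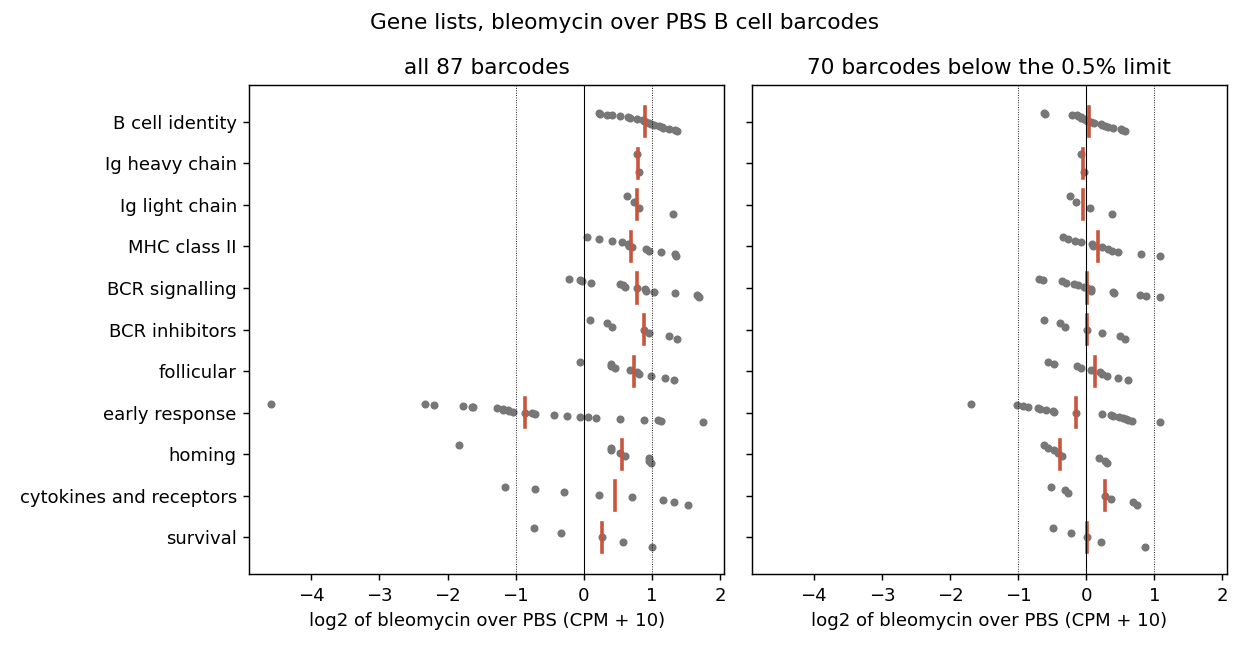
Log2 ratios of bleomycin over PBS (CPM + 10) for the genes of 11 lists, 1 point per gene, with the median in red and 2-fold dotted, over all 87 barcodes (left) and the 70 under 0.5% (right). B cell identity lies right of 0 on the left, at a median of 0.91, and around 0 on the right, at 0.04.

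Among receptor signalling and identity genes in the 70 barcodes, few differed by much. Pik3cd, the PI3K catalytic subunit of leukocytes, was at 41.4 CPM (8.54 to 121) in PBS against 99.3 CPM (57.9 to 159) in bleomycin. Its ratio, from 3 PBS UMIs, was 2.40 with a counting interval of 0.694 to 12.8. Lyn, a kinase with activating and inhibitory roles at the receptor, stood at 1104 CPM (876 to 1375) and 678 CPM (560 to 813), a log2 ratio of −0.70 with intervals apart. Bank1 was the 1 identity gene of 20 with intervals apart, 1753 CPM (1462 to 2086) and 2612 CPM (2376 to 2866), a log2 ratio of 0.57. Of all 1840 genes, 0.978% were higher and 1.68% lower with intervals apart. Siglecg, an inhibitory lectin, had the lowest identity ratio, −0.62, at 248 CPM (147 to 393) and 158 CPM (104 to 230).

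The follicular, homing, cytokine, interferon, heat shock and survival lists held no gene past 2-fold over the 70 barcodes, which with 4 to 10 genes tested in each is near the 5.98% higher and 3.21% lower of all genes. Btla, an inhibitory receptor, had the highest follicular ratio, at 387 CPM (257 to 559) and 596 CPM (486 to 724). S1pr1, which guides lymphocytes out of tissue, had the lowest homing ratio, at 193 CPM (106 to 324) and 123 CPM (76.0 to 188). Il21r, the receptor for a T cell cytokine, stood at 69.0 and 123 CPM. Of the interferon genes, Ly6a stood at 166 and 123 CPM, and Isg15, Ifit1 and Ifit3 had 0 UMIs in both libraries. Hspa8, a constitutive chaperone, stood at 497 CPM (348 to 688) and 701 CPM (581 to 839). Bax, which promotes cell death, stood at 69.0 and 134 CPM, and Pim1, a survival kinase, at 110 and 76.0 CPM. All of these intervals overlap between the libraries.

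Early response genes, which B cells switch on soon after receptor stimulation, summed to 6530 CPM (5955 to 7146) in PBS against 4728 CPM (4408 to 5065) in bleomycin in the 70 barcodes, with intervals apart, also without Junb, the gene with the largest gap (5412 CPM, 4889 to 5975, and 4050 CPM, 3754 to 4363). The median barcode held 0.630% and 0.350% of its UMIs in them. The 19 PBS barcodes under 0.5% left out by the Mzb1 and Jchain limit held 4845 CPM (4398 to 5325), with a median of 0.421%. That interval lies apart from the kept PBS barcodes and overlaps the kept bleomycin ones, so the level depends on which barcodes are kept. The 23 bleomycin ones left out held 3437 CPM (3179 to 3711), with a median of 0.374%. Among the barcodes left out, the sum was thus also lower in bleomycin with intervals apart, but their medians lay closer than those of the kept. Gene by gene the list was divided, with ratios above 0 for 9 of 19. Over all 87 barcodes, 12 of 25 were at least 2-fold lower and 3 higher, beside 14.8% and 5.95% of all genes, with a median of −0.87. Intervals lay apart there for 14 lower and 2 higher, beside 12.7% and 7.87% of all genes. Over the 70, 1 of 19 was at least 2-fold higher and 2 lower, beside 5.98% and 3.21% of all genes, and the median was −0.15 beside 0.01. Nr4a1, an immediate reporter of receptor signalling, was at 552 CPM (395 to 752) in PBS against 164 CPM (109 to 236) in bleomycin, a log2 ratio of −1.70, and was found in 16 of 21 and 16 of 49 barcodes. Junb stood at 1118 CPM (888 to 1390) and 678 CPM (560 to 813), and Btg2, an antiproliferative gene, at 815 CPM (620 to 1051) and 444 CPM (350 to 556). For these 3 genes of the 19 the intervals lay apart, all lower, beside 1.68% lower and 0.978% higher of all genes. Dusp2, a phosphatase that ends kinase signalling, passed 2-fold, at 387 CPM (257 to 559) and 187 CPM (128 to 264). Cd40, the receptor for T cell help, went the other way, 41.4 CPM (8.54 to 121) and 99.3 CPM (57.9 to 159), with the same 3 and 17 UMIs and so the same ratio interval as Pik3cd. Cd69 and Cd83, surface proteins of recently activated B cells, stood at 166 and 245 CPM and at 635 and 573 CPM. In FBs Nr4a1, Junb and Btg2 were lower in bleomycin as well, with Nr4a1 at 712 CPM in PBS and 248 CPM in bleomycin, Junb at 2075 and 1236 CPM and Btg2 at 1954 and 860 CPM. In T cells Nr4a1 stood at 136 CPM (103 to 175) and 85.6 CPM (56.4 to 125), but the list summed to 2576 CPM (2427 to 2731) in PBS against 3018 CPM (2829 to 3216) in bleomycin, opposite in direction to the B cells and with intervals apart, while the median T cell held 0.192% and 0.187%. In FBs the list summed to 18012 and 9474 CPM.

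Of the 20 genes with the highest and lowest ratios over the 70 barcodes (mean of at least 100 CPM), the intervals lay apart for 12. They were picked as the extremes of 1840 genes, so their sizes describe these barcodes. March1, a ubiquitin ligase that removes MHC class II from the surface, was at 152 CPM (75.8 to 272) in PBS against 497 CPM (397 to 614) in bleomycin, in 9 of 21 and 33 of 49 barcodes. Ifi30, a thiol reductase that unfolds antigen for class II loading, stood at 96.6 CPM (38.9 to 199) and 374 CPM (288 to 478), in 7 of 21 and 25 of 49. Both were far lower in FBs, where March1 stood at 0.218 and 0.619 CPM and Ifi30 at 23.8 and 50.4 CPM. Grap, an adaptor of lymphocyte receptors, stood at 69.0 CPM (22.4 to 161) and 228 CPM (162 to 312). Tnpo1, a nuclear import receptor, stood at 27.6 CPM (3.34 to 99.7) and 199 CPM (138 to 278), and the RNA processing gene Acin1 at 27.6 and 181 CPM. Each had 2 PBS UMIs, under the detection limit, so their place among the highest rests on bleomycin counts and the added 10 CPM. Their ratios with counting intervals were 7.20 (1.84 to 61.8) for Tnpo1 and 6.56 (1.67 to 56.6) for Acin1. Rere was the sixth with intervals apart, at 69.0 and 240 CPM. Ap1s3, Setd2, Vasp and Cct3 had overlapping intervals. The ratio of Ap1s3, from 3 PBS UMIs, was 4.09 with a counting interval of 1.27 to 21.0.

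The lowest ratios were those of Ddx3x, an RNA helicase, and Tob2, an antiproliferative gene, both at 193 CPM (106 to 324) in PBS against 46.8 CPM (20.2 to 92.1) in bleomycin. Txnip, a redox regulator, stood at 538 CPM (383 to 736) and 169 CPM (114 to 243), in 16 of 21 and 23 of 49 barcodes. In FBs Txnip stood at 318 and 166 CPM. Arhgap30, a GTPase regulator of leukocytes, stood at 304 CPM (190 to 460) and 87.7 CPM (49.1 to 145), and at under 1 CPM in FBs. Crem, a factor of the cAMP response, stood at 193 and 52.6 CPM with intervals apart. Arl5b, Baz2a, Tent2 and Laptm4a had overlapping intervals. Cd86, the costimulatory ligand for CD28, passed 2-fold among the memory genes, at 318 CPM (201 to 476) and 152 CPM (99.3 to 223), and Pdcd1lg2, which encodes PD-L2, went the other way, at 41.4 and 99.3 CPM, again from 3 and 17 UMIs. Of the markers of other cells, Scgb1a1 and Sparc passed 2-fold, with overlapping intervals. Scgb1a1, a club cell gene, stood at 27.6 CPM (3.34 to 99.7) and 117 CPM (71.4 to 181) in B cells and at 22 and 1505 CPM in FBs, and Sparc, a matrix gene, at 27.6 and 105 CPM in B cells and 1452 and 4739 CPM in FBs. Their B cell ratios, from 2 PBS UMIs each, were 4.23 (1.03 to 37.4) for Scgb1a1 and 3.81 (0.912 to 33.9) for Sparc, and the part of free RNA in them was not tested. Gsn, the other FB marker tested, had a log2 ratio of −0.87, and the 10 FB markers summed to 649 CPM (477 to 863) and 608 CPM (497 to 736).

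**Figure D5:**
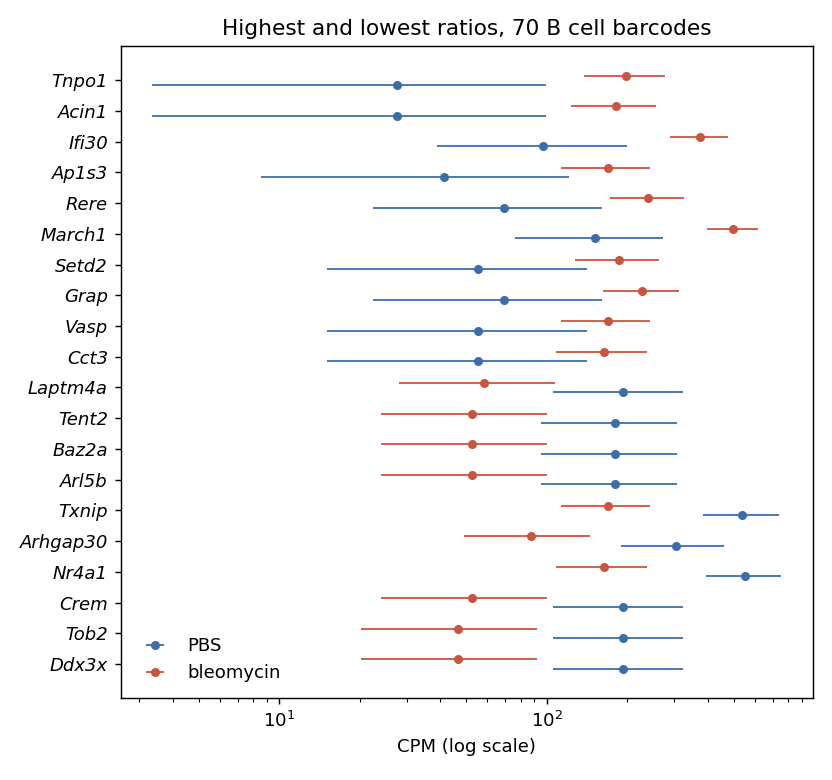
CPM (log scale) with exact Poisson intervals in the 21 PBS and 49 bleomycin B cell barcodes under 0.5%, for the 10 genes with the highest and the 10 with the lowest bleomycin over PBS ratio at a mean of at least 100 CPM. Intervals lie apart for 12 of the 20 genes, with March1 and Ifi30 at the highest bleomycin levels.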

How the data were processed

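Single-cell RNA was measured in GFP+ lung cells of 2 libraries, 1 per condition, each pooled from 3 mice. The deposited tables hold raw UMI counts of each gene in each barcode, which the authors made with Cell Ranger 3.0.1 against mm10, per the submitters' processing notes, which also name Seurat 3. The study's methods give Gencode version M17 as the gene annotation.

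Counts were read with Python 3.11.15, numpy 2.4.6, scipy 1.17.1 and pandas 2.3.3, and figures were drawn with matplotlib 3.10.9. The members and gene lists were chosen with earlier results of these data known. UMIs were summed over barcodes and scaled to CPM, with exact 95% Poisson intervals, and shares have exact Clopper-Pearson intervals. PCR duplicates are removed by UMIs, and intervals cover counting error only. No test was run between libraries. Named genes were the rule genes, each list's most abundant member, its highest and lowest ratio and its members past 2-fold, all immunoglobulin constant genes, leading V segments, and the 10 highest and 10 lowest ratios at a mean of 100 CPM. Other genes were named to describe a list after their values were seen. Alternatives are given in the closing section. The ratios were tested on simulated data with 200 changed genes. Promoters came from RefSeq, GRCm38.p6. No cells were removed as doublets. T cell and plasma cell barcodes were held to the same 0.5% limit on FB and endothelial UMIs as the B cells, a choice made after seeing the data. The other 4 libraries were used only to count barcodes under the same rule and their UMIs. Some genes of the lists are counted but not reported here by name.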

Additional observations from a re-analysis of the deposited data

Results flagged for a closer look

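Barcodes left outside the B cells by the Mzb1 and Jchain limit were not among the B cells compared. In the bleomycin library, Igha stood at 10700 CPM in the 23 such barcodes under 0.5% FB and endothelial UMIs, against 0 UMIs in the 19 PBS ones, and came from 4 of the 23. Mki67, a proliferation gene, stood at 94.5 CPM in bleomycin against 0 UMIs in PBS, also in 4 of 23 barcodes. Both stand out because they lie above the level in the control library. Jchain, which is part of the limit itself, stood at 12716 CPM against 0 UMIs. With 1 library per condition, samples within a group were not compared.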

How the results depend on the processing

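Each condition is 1 library of 3 pooled mice, so mouse and treatment cannot be told apart, and depth limits PBS B cells to 13.8 CPM per UMI. No paired analysis was possible because each condition is 1 library. Of 156 values under 10 alternatives, 135 moved by less than their counting interval or list spread (counts by less than 1.5 times), 21 moved more and 0 changed the sign of a called value. Some of the 135 could not move. No B cell barcode held over 6.67% mitochondrial UMIs, so a limit of 10% changed only the B cell shares. The minimum of 1500 UMIs and that of 4 UMIs of Cd79a plus Ms4a1 kept the same 26 PBS barcodes. With only barcodes under 0.5% FB and endothelial UMIs, chosen after seeing the data, 110 genes were higher and 59 lower, list medians were 0.039 (identity), 0.17 (MHC class II), 0.011 (receptor signalling), 0.013 (inhibitors) and 0.14 (follicular), FB marker UMIs were 0.0649% in PBS and 0.0608% in bleomycin, and endothelial ones 0.0290% in PBS. Homing and heat shock medians changed sign there, to −0.38 and 0.06, inside the spread of their genes. With each barcode thinned to 700 UMIs, 26 genes were higher and 11 lower, in which fewer genes could qualify, and the identity, MHC class II and receptor signalling medians were 0.15, 0.031 and 0.093. At 50 UMIs and 100 CPM, 99 genes were higher and 201 lower, among fewer genes tested. With a leading gene of at least 5 UMIs and 2 times the next, Ighm or Ighd led in 50.0% of PBS and 44.3% of bleomycin barcodes. At 1500 UMIs the bleomycin share was 0.797%, beside 0.441% in PBS. At 4 UMIs of Cd79a plus Ms4a1 the bleomycin FB marker UMIs were 0.905%. The cause of these shifts was not tested where none is named.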

Other observations

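The same rule was applied to the libraries of single exposure and of organoids. It found 5 of 1052 barcodes in the single-dose PBS library (0.475%, 0.154 to 1.11%) and 8 of 996 in the single-dose bleomycin library (0.803%, 0.347 to 1.58%), all with Cd79a, at 2283 to 2890 and 1757 to 3850 UMIs. They held 40 and 78 UMIs of Ighm plus Ighd. In the organoid libraries it found 11 and 3 barcodes, with 0 UMIs of Cd79a, 0 UMIs of Ighm and Ighd, and 27774 to 185331 UMIs in the normal and 63294 to 120834 UMIs in the fibrogenic organoids.

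Lgals1, which encodes a lectin of activated and matrix-associated cells, had 0 UMIs in the 21 PBS barcodes (up to 50.9 CPM) and 22 UMIs in 10 of the 49 bleomycin barcodes (129 CPM, 80.6 to 195). It met the minimum of 20 UMIs through bleomycin alone, so nothing is read from its rank. Over all 87 barcodes it stood at 211 CPM (153 to 283) and 264 CPM (203 to 338). It was outside the 20 genes named by ratio because its mean was under 100 CPM, and is given after its values were seen. In FBs it stood at 864 and 1499 CPM.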
